A study of Homo sapiens with 39 samples.

Results

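Galectin genes were followed in 39 RNA-seq libraries from a pair of human melanoma lines, A375 and WM115. The members were LGALS1, LGALS3, LGALS7, LGALS7B, LGALS8, LGALS9 and the galectin ligand gene LGALS3BP, which are 7 of the 60671 genes in the deposited gene table, found there by symbol. The family was selected on measured values, since LGALS1 and LGALS7B were higher in WM115 clones than in WM115 wild-type cells. The comparison of WM115 clones with WM115 wild type therefore chose the members, and it is given below as a description with no test of any member. LGALS7 and LGALS7B are near-identical copies, so their levels were summed into 1 feature, written LGALS7+LGALS7B, which leaves 6 features.

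The clones carry a deletion of an enhancer region near SOX10, named R1 or R4 in the labels, and the wild-type cells (WT) do not. For A375 there were 4 WT libraries. The R1-deleted A375 clones 1.1 and 1.2 had 3 and 4 libraries, and the R4-deleted A375 clones 4.1 and 4.2 had 4 and 3. For WM115 there were also 4 WT libraries, with 5 and 3 from its R1-deleted clones 1.1 and 1.2, and 3 from each of clones 4.1 and 4.2, which lack R4. Another 3 WM115 libraries came from clone 1.3. The title of WM115 clone 1.3 names R1 and its genotype label names R4, so it was kept apart. Each group other than WT is 1 clone, and nothing in the labels says that the libraries of a group came from separate cultures. A p-value over libraries therefore measures the spread between these libraries, which may be technical. Levels are in TPM (the share of a library's transcripts, corrected for transcript length), and the read depth behind them is unknown.

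Galectins are small lectins that bind beta-galactoside sugars on glycoproteins and glycolipids. They are made in the cytosol, where some act inside the cell and on damaged lysosomes, and they leave the cell by a route that bypasses the secretory pathway. LGALS1 and LGALS3 encode galectins often abundant in melanoma, galectin-7 is known best from stratified epithelia such as epidermis, and LGALS3BP encodes a secreted glycoprotein that galectins bind.

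The members lie on 5 chromosomes of GRCh38, with positions from GENCODE 29 matched by Ensembl identifier. LGALS1 occupies chr22:37675608-37679806 on the plus strand and is the member nearest to SOX10, whose nearest end lies 290880 bp away on the same chromosome. LGALS3 occupies chr14:55124110-55145413 (plus strand) and LGALS8 chr1:236518000-236552981 (plus strand). LGALS9 occupies chr17:27629798-27649560 (plus strand), and LGALS3BP occupies chr17:78971238-78980109 (minus strand). LGALS7 at chr19:38770971-38773492 (minus strand) and LGALS7B at chr19:38789211-38791749 (plus strand) face away from each other.

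The LGALS7 and LGALS7B sequences are shown because they decide how their levels can be read. Over the 408 coding bases of their main transcripts in GENCODE 29 the copies differ at 1 position, G144C, counted from 1 at the first base of the start codon with the LGALS7 base first. It is the last base of codon 48, in exon 3 of both genes, and the encoded proteins are the same. The 61 bases around it are given 5′ to 3′ on the coding strand, with the differing base in capitals, from chr19:38771952-38772012 (LGALS7) and chr19:38790707-38790767 (LGALS7B).
LGALS7: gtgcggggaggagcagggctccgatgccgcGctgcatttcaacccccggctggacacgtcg
LGALS7B: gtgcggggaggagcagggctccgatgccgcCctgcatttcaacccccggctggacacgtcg
A read that does not cover this base cannot be assigned to 1 copy from the coding sequence, so the split between the copies is uncertain. Results are given for the sum, and values of a single copy serve as alternatives.

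Upstream of the start sites the copies are also alike, though less so than the 99.75% identity of their coding bases. RefSeq promoter windows (GRCh38.p14) were given for 6 of the 7 members, the exception being LGALS1. In the 250 bases before the start site, 216 bases of LGALS7 and LGALS7B align without a gap and differ at 4, an identity of 98.1%. They are shown because LGALS7+LGALS7B varied most among the members, with the differing bases in capitals, from chr19:38773520-38773735 (LGALS7, minus strand) and chr19:38788984-38789199 (LGALS7B, plus strand).
LGALS7: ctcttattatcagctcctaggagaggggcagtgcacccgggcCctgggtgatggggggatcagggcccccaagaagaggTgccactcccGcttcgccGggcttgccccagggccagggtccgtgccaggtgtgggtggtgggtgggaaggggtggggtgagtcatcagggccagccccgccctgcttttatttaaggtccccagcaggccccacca
LGALS7B: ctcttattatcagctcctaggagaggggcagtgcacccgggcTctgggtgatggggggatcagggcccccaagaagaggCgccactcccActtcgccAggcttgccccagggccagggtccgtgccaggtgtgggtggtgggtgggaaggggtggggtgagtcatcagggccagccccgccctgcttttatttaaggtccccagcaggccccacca
Both hold 1 match to the AP-1 motif TGAGTCA, at bases -61 to -55 of LGALS7 and -59 to -53 of LGALS7B. Searched on both strands, this motif is in 4.2% of all 35116 promoter windows of 250 bases. The motifs ACAAAG (13.7% of windows) and ACAATG (9.29%), known from SOX factors, and CATGTG (9.42%) and CACGTG (6.34%), known from MITF, gave 1 match among the members, ACAATG on the reverse strand of the LGALS9 window at bases -214 to -209. A match is a description of letters, and absence of a match says only that these letters are not in this window.

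A few facts of the whole series touch the values below. Between 14084 and 16140 genes reached 1 TPM in a library. Of 8 melanocytic markers, all averaged at least 1 TPM in WM115 WT. In A375 SOX10, MITF and S100B were above 1 TPM in every library, while MLANA (at most 0.976 TPM), TYRP1 (0.828), DCT (0.166) and TYR (0.023) were below it throughout and PMEL had a median of 0.69 TPM. SOX10 ranged from 629.84 to 706 TPM in A375 WT and from 449 to 553 TPM in WM115 WT. WM115 clone 1.2 replicate 3 stood apart at 9.56 TPM of SOX10, with MITF, the melanocyte master regulator, at 6.16 TPM, and WM115 clone 1.3 replicate 3 stood apart from its group with MITF at 202 TPM. The share of mitochondrial transcripts was 13.7% to 15.6% in WM115 WT and 4.71% to 19.4% in the other WM115 libraries. In A375 it was 0.968% to 4.92%. In bulk RNA, fewer cells with a transcript and less of it per cell cannot be told apart.

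In WT cells the most abundant members were LGALS1 in A375 and LGALS3BP in WM115. By mean TPM among genes above 0, LGALS1 ranked 111 in A375 and 162 in WM115, LGALS3BP ranked 289 and 150, and LGALS3 ranked 2744 and 250. LGALS3 was the member that separated the lines furthest. Its level was 62.2, 63.8, 67.3 and 44.1 TPM in the 4 A375 WT libraries and 492.6, 414, 243 and 866 TPM in the 4 WM115 WT libraries. The groups did not overlap, and A375 was lower by 2.94 on the log2(TPM + 1) scale (log2 difference -2.94, SE 0.32, limma adjusted p 3.98e-09).

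Of LGALS3, LGALS8 and LGALS3BP, LGALS3 was the 1 called between the WT lines, where a call needs an adjusted p under 0.05 and a log2 difference of at least 1. Of 18661 genes tested, 20% were called. LGALS1 averaged 1545.5 ± 145 TPM in A375 WT and 823 ± 306 TPM in WM115 WT (SD, n = 4 each), without overlap, a log2 difference of 0.98 that was 1.19 without WM115 WT replicate 3. It is given without a test, since the WM115 WT libraries entered the choice of LGALS1. LGALS3BP averaged 451 ± 92.7 and 871 ± 163 TPM, a difference of -0.95 (limma adjusted p 8.43e-05). This lay just under the minimum difference, and it was called without WM115 WT replicate 3 or A375 WT replicate 2, at -1.08 in either case. LGALS8 averaged 55.3 ± 6.47 and 77.2 ± 2.62 TPM, a difference of -0.48 (limma adjusted p 0.000762). LGALS7+LGALS7B averaged 2.45 and 0.986 TPM and overlapped, also given without a test. LGALS9 was below 0.5 TPM throughout, so it was not tested.

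**Figure D1:**
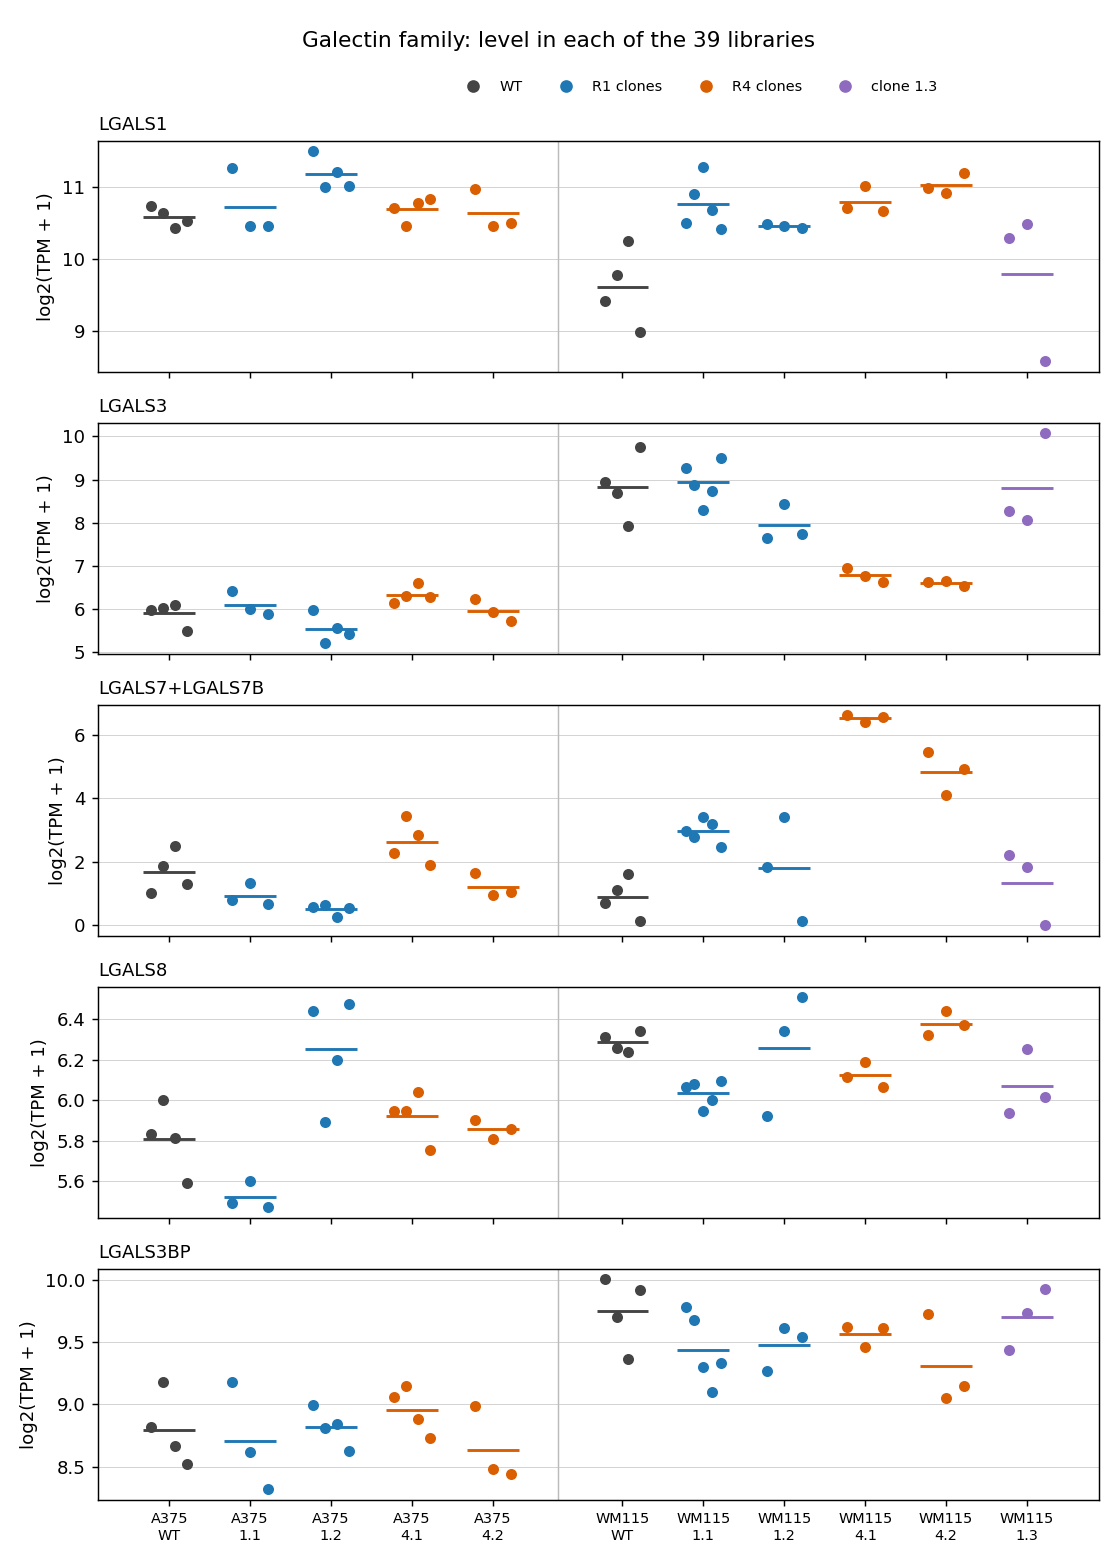
Level of 5 galectin features in each of the 39 libraries, as log2(TPM + 1) on the vertical axis, with groups by line and clone along the horizontal axis. Points are libraries and bars are group means; LGALS3 in WM115 R4 clones (91.0 to 122 TPM) sits below all 4 WM115 WT libraries, and LGALS7+LGALS7B is highest in WM115 clone 4.1 (84.0 to 96.6 TPM).

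In WM115 the description that chose the family begins with LGALS1, which encodes galectin-1. WM115 WT held 686, 880, 1220 and 506 TPM. R1 clone 1.1 held 1449, 1930, 2503, 1655 and 1367 TPM, and R1 clone 1.2 held 1442, 1409 and 1391 TPM. R4 clone 4.1 held 1684, 2070 and 1637 TPM, and R4 clone 4.2 held 2031, 1942.5 and 2351 TPM. Every library of these 4 clones lay above every WT library, and the means were 2.16, 1.72, 2.18 and 2.56 times the WT mean in clones 1.1, 1.2, 4.1 and 4.2. On the log2(TPM + 1) scale the differences were 1.15, 0.86, 1.19 and 1.43.

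Clone 1.3 did not share this separation. Its LGALS1 levels were 1261, 1444 and 383 TPM, and replicate 3 was the lowest of all 39 libraries, so the clone overlapped WT at a log2 difference of 0.18. Without replicate 3 the difference was 0.79. Because mitochondrial share moved with the groups, LGALS1 was also compared among the WM115 libraries of high share alone, where the log2 difference was 0.94 in clone 1.1 (2 libraries), 1.07 in clone 4.1 (1 library) and 1.45 in clone 4.2 (2 libraries). Fibroblasts also make much LGALS1, and 6 fibroblast markers summed to 459 to 672 TPM in WT, 551 to 862 in clone 1.1, 476 to 834 in clone 1.2, 588 to 676 in clone 4.1 and 542 to 742 in clone 4.2. Most of each sum was COL1A2 (median 599.6 TPM over the WM115 libraries), and the other 5 had medians from 0.549 to 2.16 TPM. Their part in the result was not tested.

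LGALS3, which encodes galectin-3, went the other way in the R4 clones of WM115. WT held 492.6, 414, 243 and 866 TPM. R4 clone 4.1 held 122, 107 and 98.3 TPM and R4 clone 4.2 held 97.9, 99.2 and 91.0 TPM, all below WT, at log2 differences of -2.05 and -2.23. The R1 clones overlapped WT. R1 clone 1.1 held 612, 465, 315, 425 and 723 TPM (log2 difference 0.10), and R1 clone 1.2 held 199, 346 and 211 TPM (log2 difference -0.90). Clone 1.3 spanned 268 to 1074 TPM, and its replicate 3, lowest in LGALS1, was the highest of all libraries in LGALS3.

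LGALS7+LGALS7B covers the copies of galectin-7. In WM115 WT it was 0.643, 1.16, 2.03 and 0.106 TPM. R1 clone 1.1 held 6.86, 5.84, 9.64, 8.17 and 4.503 TPM, all above WT. R4 clone 4.1 held 96.6, 84.0 and 92.5 TPM and R4 clone 4.2 held 42.9, 16.0 and 29.4 TPM, also all above WT. The means of clones 1.1, 4.1 and 4.2 were 7.10, 92.3 and 29.9 times the WT mean, and the log2(TPM + 1) differences were 2.07, 5.63 and 3.93. R1 clone 1.2 overlapped WT at 2.54, 9.61 and 0.105 TPM, a log2 difference of 0.90 that was 1.72 without replicate 3, the library low in SOX10.

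Clone 1.3 gave 3.63 and 2.56 TPM of LGALS7+LGALS7B, and replicate 3 was listed at 0. In WM115 this feature passed the filter on low values through the clones, since 2 of the 4 WT libraries were at or above 1 TPM, so its passing carries no information on the difference. The authors' values put 78.1% to 83.7% of the sum on LGALS7B in the R4 clones and 86.6% to 97.3% in R1 clone 1.1, a split that the single coding difference leaves uncertain. With either copy taken alone, clones 4.1 and 4.2 had higher means than WT (log2 differences of 4.14 and 2.56 for LGALS7 alone, and 5.37 and 3.69 for LGALS7B alone). In clone 1.1 the difference was 0.41 for LGALS7 alone, against 2.07 for the sum. LGALS7 averaged 0.462 TPM in that clone.

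Galectin-7 is an epidermal gene, so keratinocyte markers were read beside it. In WM115, KRT5 was listed at 0 in all 21 libraries, and KRT1, DSG3 and IVL did not exceed 0.04 TPM. TP63 reached 7.65 TPM in clone 1.2 replicate 3, where LGALS7+LGALS7B was 0.105 TPM, and did not exceed 0.677 TPM in the R4 clones. KRT14 averaged 2.52 ± 0.99 TPM in clone 4.1 and 2.13 ± 0.67 TPM in clone 4.2 against 0.227 ± 0.242 TPM in WT, and it reached 1 TPM in WM115 only in the 6 libraries of these clones, so no test is given. The sum of the 8 markers, most of it KRT10, ranged from 40.5 to 56.5 TPM in WT, 57.9 to 72.9 in clone 4.1 and 62.1 to 79.5 in clone 4.2, and its part in the result was not tested. In A375 the highest LGALS7+LGALS7B levels, in clone 4.1, stood with 0.062 to 7.49 TPM of KRT14, and WT held 0.911 to 26.4 TPM.

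LGALS8 and LGALS3BP differed little between WM115 clones and WT. LGALS8, whose product marks damaged vesicles, was 74.6 to 80.3 TPM in WT, 60.6 to 67.3 TPM in clone 1.1 and 65.9 to 71.8 TPM in clone 4.1, both entirely below WT at log2 differences of -0.25 and -0.17. Clones 1.2, 4.2 and 1.3 overlapped WT. Median-of-ratios scaling moved the 2 differences to -0.11 and -0.03. LGALS3BP was 659 to 1026 TPM in WT and between 529 and 971 TPM in the clones, all overlapping, with log2 differences from -0.44 in clone 4.2 to -0.05 in clone 1.3. LGALS9, which encodes galectin-9, did not exceed 0.402 TPM in any of the 39 libraries and was listed at 0 in 4.

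Counted with the rule of a log2 difference of at least 1 and no overlap with WT, 2 of 5 features above the filter met it in WM115 clone 1.1 against 4.29% of all 16996 genes. The count was 0 in clone 1.2 (6.63% of genes), 3 in clone 4.1 (7.9%), 3 in clone 4.2 (6.91%) and 0 in clone 1.3 (1.18%). These shares stand beside a contrast that chose the members, and nothing is read from them. The clones also share the same 4 WT libraries.

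**Figure D2:**
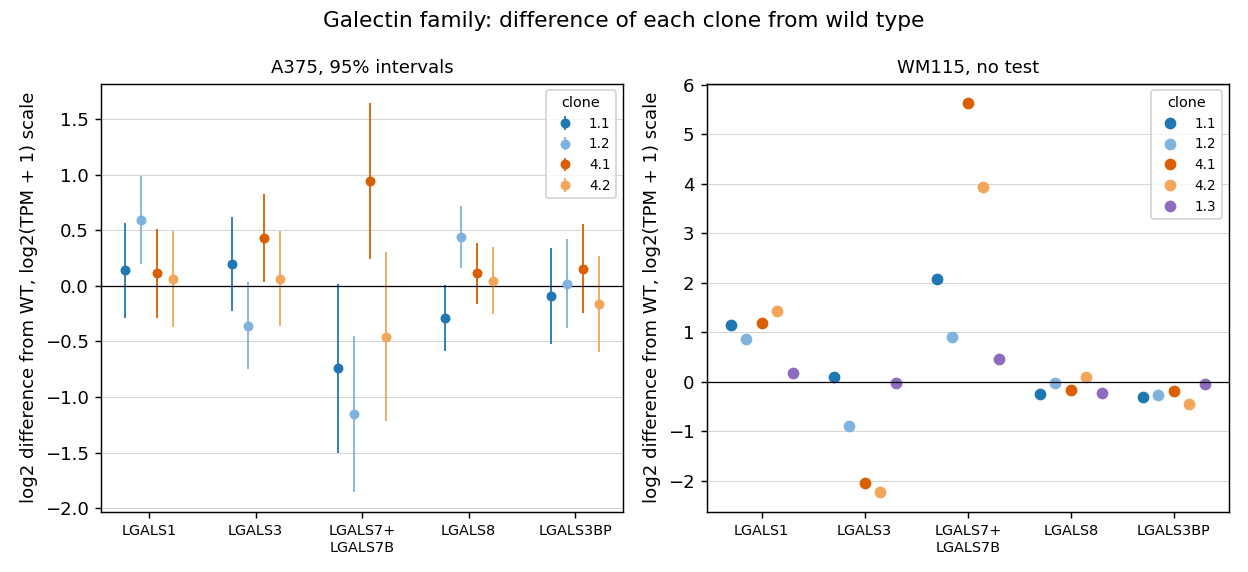
Difference of each clone from WT of its line on the log2(TPM + 1) scale for 5 galectin features; A375 points carry 95% intervals of the limma fit and WM115 points carry none, since that contrast chose the members. The vertical axes differ: LGALS7+LGALS7B spans -1.16 to 0.94 in A375 and 0.45 to 5.63 in WM115.

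A375, which the choice of members did not use, allowed tests. Of the 5 features tested in each clone against WT, limma called 0 in clone 1.1, beside 0.731% of all 16692 genes. In clone 1.2 it called 1, beside 4.02% of genes. Clones 4.1 and 4.2 had 0 each, beside 0.653% and 0.473% of genes. At an unadjusted p under 0.05, LGALS1, LGALS7+LGALS7B and LGALS8 passed in clone 1.2, and LGALS3 and LGALS7+LGALS7B passed in clone 4.1. The share of all genes that passed at this level is not given, so nothing is read from these passes. The largest shift of a whole clone, the median over all genes, was 0.07 on the log2 scale in clone 1.2.

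LGALS1 in A375 WT was 1718, 1597, 1380.5 and 1486.5 TPM. R1 clone 1.2 held 2896, 2065, 2371 and 2067.5 TPM, all above WT, at 1.52 times the WT mean. The log2 difference of 0.59 (95% interval 0.20 to 0.99) had a limma adjusted p of 0.0616 and missed the threshold. It ranged from 0.49 to 0.65 over 18 alternatives. R1 clone 1.1 held 2478, 1407 and 1406 TPM, R4 clone 4.1 ranged from 1416 to 1838 TPM and R4 clone 4.2 held 2020, 1407 and 1460 TPM, all overlapping WT, with log2 differences of 0.14, 0.11 and 0.06 (limma adjusted p 0.809, 0.923 and 0.907). Replicate 1 was the highest library in clones 1.1 and 4.2, and without it the differences were -0.13 and -0.10.

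LGALS7+LGALS7B was the member called in A375. WT held 1.03, 2.62, 4.67 and 1.49 TPM, and R1 clone 1.2 held 0.507, 0.572, 0.204 and 0.476 TPM, all below WT. The difference was -1.16 on the log2(TPM + 1) scale (SE 0.33, limma adjusted p 0.0388), at levels where that scale understates a ratio. The call held in 7 of 18 alternatives, with adjusted p from 0.0128 to 0.688, and it was lost at between -1.20 and -1.07 when any 1 of the 4 clone libraries was left out. It was also lost without WT replicate 2 (-1.09) or 3 (-0.88), and among the libraries of low mitochondrial share (-0.78). Some markers of other cell types, SFN, LUM and COL1A1, were called higher in clone 1.2 than in WT. Of the other tested markers of these types, KRT14, DCN and CD68 averaged higher and KRT10, PDGFRA, LYZ and KDR lower, none called. SFN averaged 6.14 against 0.423 TPM, LUM 5.85 against 1.47 and COL1A1 3.57 against 1.304, and the 6 fibroblast markers summed to 10.4 to 14.3 TPM against 3.12 to 6.53. The 8 keratinocyte markers summed to 60.8 to 106 TPM in clone 1.2 and 65.8 to 115 in WT, and the part of these markers in the LGALS1 and LGALS7+LGALS7B values was not tested. R1 clone 1.1 was 0.74, 1.501 and 0.60 TPM and overlapped WT (-0.74, limma adjusted p 0.511).

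In R4 clone 4.1 of A375 the same feature was 3.82, 9.98, 6.25 and 2.70 TPM, the highest values of the line in 2 of the 4 libraries. It overlapped WT at a log2 difference of 0.94 (limma adjusted p 0.244). Replicate numbers paired these 2 groups (r of same-numbered libraries 0.33 to 0.78), and with the pairing as a block the adjusted p was 0.0377 at the same difference, still short of the minimum difference. R4 clone 4.2 was 2.16, 0.933 and 1.06 TPM (-0.46, limma adjusted p 0.663).

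LGALS3 in A375 clone 4.1 was 69.4, 77.7, 96.3 and 76.98 TPM against 62.2, 63.8, 67.3 and 44.1 TPM in WT, without overlap. The log2 difference of 0.43 (SE 0.19) had a limma adjusted p of 0.396, and 0.0482 with the pairing as a block. Clone 1.2 had 62.3, 35.8, 45.9 and 42.0 TPM (-0.36, limma adjusted p 0.292), and clones 1.1 and 4.2 differed by 0.20 and 0.06. LGALS8 in clone 1.2 was 85.8, 58.3, 72.5 and 88.1 TPM against 47.2 to 63.0 TPM in WT, a difference of 0.44 (SE 0.13, limma adjusted p 0.045) that fell short of the minimum. LGALS3BP differed from WT by between -0.16 and 0.16 on the log2 scale in the 4 A375 clones, with limma adjusted p from 0.744 to 0.97.

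Clones that lack the same region were compared with each other. In A375, 0 of 5 features were called between clones 1.1 and 1.2 (6.16% of genes called) and 1 between clones 4.1 and 4.2 (2.23%). The latter was LGALS7+LGALS7B, higher in clone 4.1 by 1.40 (SE 0.36, limma adjusted p 0.0383), a call held in 3 of 10 alternatives. It was lost without clone 4.1 replicate 1, 2 or 3 (1.52, 1.12 and 1.321) and without clone 4.2 replicate 2 or 3 (1.27 and 1.31). Replicate numbers paired clone 4.1 with WT and clone 4.2 with clone 1.1 (r 0.43 to 0.74), but not clone 4.1 with 4.2 (r -0.35 to 0.02). A difference between such sets of libraries and one between the clones cannot be told apart here. The same limit applies to A375 clones 1.1, 1.2 and 4.2 against WT, whose replicate numbers did not pair with those of WT. That includes the LGALS7+LGALS7B call in clone 1.2 (r with WT -0.62 to 0.04). LGALS8 was lower in clone 1.1 than in clone 1.2 by a log2 difference of -0.73 (95% interval -1.03 to -0.43, limma adjusted p 0.00277), under the minimum difference. In WM115, 0 of the 3 features LGALS3, LGALS8 and LGALS3BP were called between clones 1.1 and 1.2 (11.8% of genes called) and 0 between clones 4.1 and 4.2 (2.62%). LGALS3 stood 0.996 higher in clone 1.1 than in clone 1.2 (95% interval 0.16 to 1.83, limma adjusted p 0.0587), which was called at 1.15 without clone 1.1 replicate 3 and at 1.25 without clone 1.2 replicate 2. LGALS1 and LGALS7+LGALS7B are given without a test there, since values of these clones chose the family. LGALS7+LGALS7B was 1.17 higher in clone 1.1 than in clone 1.2, and 0.35 without clone 1.2 replicate 3. It was 1.70 higher in clone 4.1 than in clone 4.2. LGALS1 was 0.30 higher in clone 1.1 than in clone 1.2, and clone 4.1 differed from clone 4.2 by -0.23.

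Whether the deleted region mattered was asked with the clone as the unit, 4 R1 clones against 4 R4 clones over both lines. Of 18661 genes, 0% were called by limma, with 766 at an unadjusted p under 0.05, and 0 of the 3 features LGALS3, LGALS8 and LGALS3BP were called. LGALS3 differed by 0.71 (95% interval -0.27 to 1.69, limma adjusted p 0.981) and LGALS3BP by -0.01 (-0.29 to 0.28). LGALS1 and LGALS7+LGALS7B are given without a test, because their levels in WM115 clones chose the family. As log2(TPM + 1), LGALS1 averaged 10.79 in R1 clones and 10.80 in R4 clones, and LGALS7+LGALS7B averaged 1.55 and 3.80. In WM115 alone the mean log2 level of LGALS3 was 8.44 over the 2 R1 clones and 6.69 over the 2 R4 clones, while in A375 it was 5.82 and 6.15.

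Across the 21 WM115 libraries some members rose and fell together and others ran opposite. These libraries share clones and WT, so the following correlations describe them and carry no test. LGALS1 and LGALS3 had a Pearson r of -0.70 on log2(TPM + 1), and -0.52 without the 2 libraries farthest from the median of LGALS1. The opposition was visible among the 4 WT libraries themselves, where the order of LGALS1 (1220, 880, 686 and 506 TPM) was the reverse of that of LGALS3 (243, 414, 492.6 and 866 TPM). LGALS7+LGALS7B followed LGALS1 (r 0.72) and opposed LGALS3 (r -0.75). The family was chosen because LGALS1 and LGALS7B were both higher in WM115 clones than in WT, so nothing is read from the r of 0.72. In the 18 A375 libraries LGALS1 and LGALS3 had an r of -0.06, and LGALS3 and LGALS7+LGALS7B an r of 0.65. LGALS1 and LGALS7+LGALS7B had an r of -0.46 there.

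LGALS3 in WM115 ran beside the melanocytic markers. Its r was 0.88 with the mean of the 8 markers and 0.88 with MITF, and 0.97 and 0.93 without the 2 libraries farthest from the median of each. For MITF these 2 included clone 1.2 replicate 3, the WM115 library lowest in MITF (6.16 TPM). LGALS3 was 211 TPM in that library, above every library of the R4 clones, and the 8 markers summed to 29.4 TPM. MITF was 149, 139, 60.5 and 165 TPM in WT, and the 4 libraries had the same order in MITF and in LGALS3. It was 11.2, 9.25 and 11.1 TPM in clone 4.1 and 15.2, 15.8 and 18.3 TPM in clone 4.2 (limma adjusted p 0.000795 and 0.00412 against WT), the clones in which LGALS3 was lowest. Of the 8 markers 6 were called lower in clone 4.1 (7.56% of all genes called) and 5 in clone 4.2 (6.6%). SOX10 and S100B were not called in either of these 2 clones. In clones 1.1 and 1.2, where LGALS3 overlapped WT, 1 and 4 markers were called lower (4.88% and 7.61% of all genes called). The 8 summed to 1044 to 2890 TPM in WT, 791 to 1138 in clone 4.1 and 661 to 1065.5 in clone 4.2, and their part in the LGALS3 result was not tested. LGALS1 had an r of -0.68 with MITF. With SOX10 the r was 0.14 for LGALS3, -0.11 for LGALS1 and 0.24 for LGALS7+LGALS7B. Without the 2 libraries farthest from the median of SOX10 these were 0.31, -0.46 and -0.23. In A375, where MITF stayed between 7.23 and 26.7 TPM, LGALS3 had an r of -0.14 with MITF and 0.67 with SOX10, and LGALS7+LGALS7B an r of 0.76 with SOX10.

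**Figure D3:**
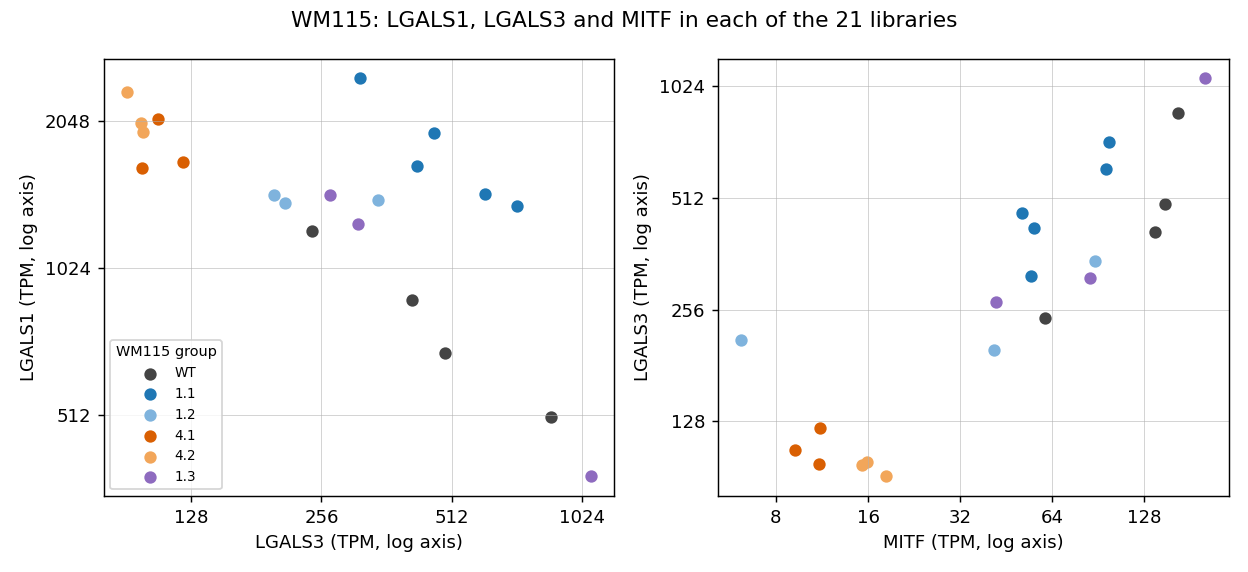
WM115 libraries (points, coloured by group) by LGALS3 and LGALS1 on the left and by MITF and LGALS3 on the right, in TPM on log axes. R4 clones lie at the low end of LGALS3 (91.0 to 122 TPM) and toward the low end of MITF (9.25 to 18.3 TPM). Clone 1.2 replicate 3 lies lower in MITF (6.16 TPM) than any R4 library, at 211 TPM of LGALS3. Clone 1.3 replicate 3 lies at the corner opposite the R4 clones, at 1074 TPM of LGALS3 and 383 TPM of LGALS1.

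The genes most like each member over the libraries of a line were named by the highest Pearson r, as a description. In WM115 they were GPNMB (0.95), LYST (0.95) and SPIRE1 (0.95) for LGALS3, and FAM135B (0.94), CDKN1C (0.92) and PDGFB (0.92) for LGALS7+LGALS7B. LGALS1 was most like the pseudogene AC004057.1 (0.93), BZW1 (0.92) and BZW1P2 (0.92), the last a pseudogene whose reads may be shared with BZW1. In A375 LGALS1 was most like CAPNS1 (0.94), C1QTNF1 (0.90) and H2AJ (0.89), LGALS3 like MGMT (0.88), ITM2B (0.88) and STRA6 (0.87), and LGALS7+LGALS7B like NEK3 (0.90), FAM20A (0.90) and SOD3 (0.89). No gene was on both lines' lists for these 3 members. For LGALS3BP, NUCB1 led in both lines (0.94 in A375 and 0.96 in WM115). LGALS8 was most like PIAS3 (0.91), KLK2 (0.91) and NUDT17 (0.90) in A375 and YPEL3 (0.82), AC022400.7 (0.73) and TXNDC11 (0.72) in WM115.

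Transcript-level TPM showed which forms made up each gene. LGALS1-201, with 4 exons and 405 coding bases, held 97.8% to 98.3% of LGALS1 in every group, and LGALS3-201, with 750 coding bases, held 88.4% to 90.9% of LGALS3. LGALS3BP-201 held 78.2% to 86.5%. LGALS8 was spread over several forms. The 2 largest coding forms, each with 951 coding bases, held 21.2% to 26.02% and 14.1% to 26.5%, and a form with 1077 coding bases held 11.7% to 20.1%. A first retained-intron form held 3.24% ± 2.36 (SD, n = 4) of LGALS8 in WM115 WT and 16.3% ± 3.53 (SD, n = 5) in clone 1.1, whereas another such form held 10.7% ± 1.15 and 3.09% ± 3.50. These shares are estimates, since reads from exons common to the forms do not tell them apart.

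LGALS1 lies near SOX10, so the genes within 300000 bp of it were listed, 33 in all, of which 18 passed the filter in WM115 and 19 in A375. In A375 0 of 19 were called in any of the 4 clones. In WM115 the calls by limma were 1 higher in clone 1.1 (4.88% of genes called), 2 lower in clone 1.2 (7.61%), 2 higher in clone 4.1 (7.56%), 1 higher in clone 4.2 (6.6%) and 0 in clone 1.3 (0.618%). CDC42EP1, a regulator of the cytoskeleton 106203 bp from LGALS1, rose in clones 1.1 and 4.1 by 1.26 and 1.23, and the call in clone 4.1 was lost among libraries of high mitochondrial share. CARD10, a signalling scaffold 156066 bp away, rose in clones 4.1 and 4.2 by 1.59 and 2.02, calls held in 11 and 16 of 18 alternatives. In clone 4.1 the CARD10 call was lost without clone replicate 1 or 2 or WT replicate 1 or 4, at differences from 1.16 up. In clone 1.2 the genes called were SOX10 (-2.44) and PDXP (-1.06), and neither was called without replicate 3, at -0.87 and -0.49.

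PDXP, called in clone 1.2, lies 8674 bp from LGALS1. Other near genes, picked by distance after their values were seen, were not called. NOL12, 1867 bp away, differed from WT by between -0.55 and 0.11 in clones 1.1, 1.2, 4.1 and 4.2 of WM115, and TRIOBP, 17182 bp away, by between -0.25 and 0.28. GGA1, 42044 bp away, stayed between -0.13 and 0.01. SOX10 itself was 408 TPM in clone 1.1, 405 in clone 4.1 and 422 in clone 4.2 on average against 507 in WT, differences of -0.32, -0.33 and -0.28 that were not called.

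**Figure D4:**
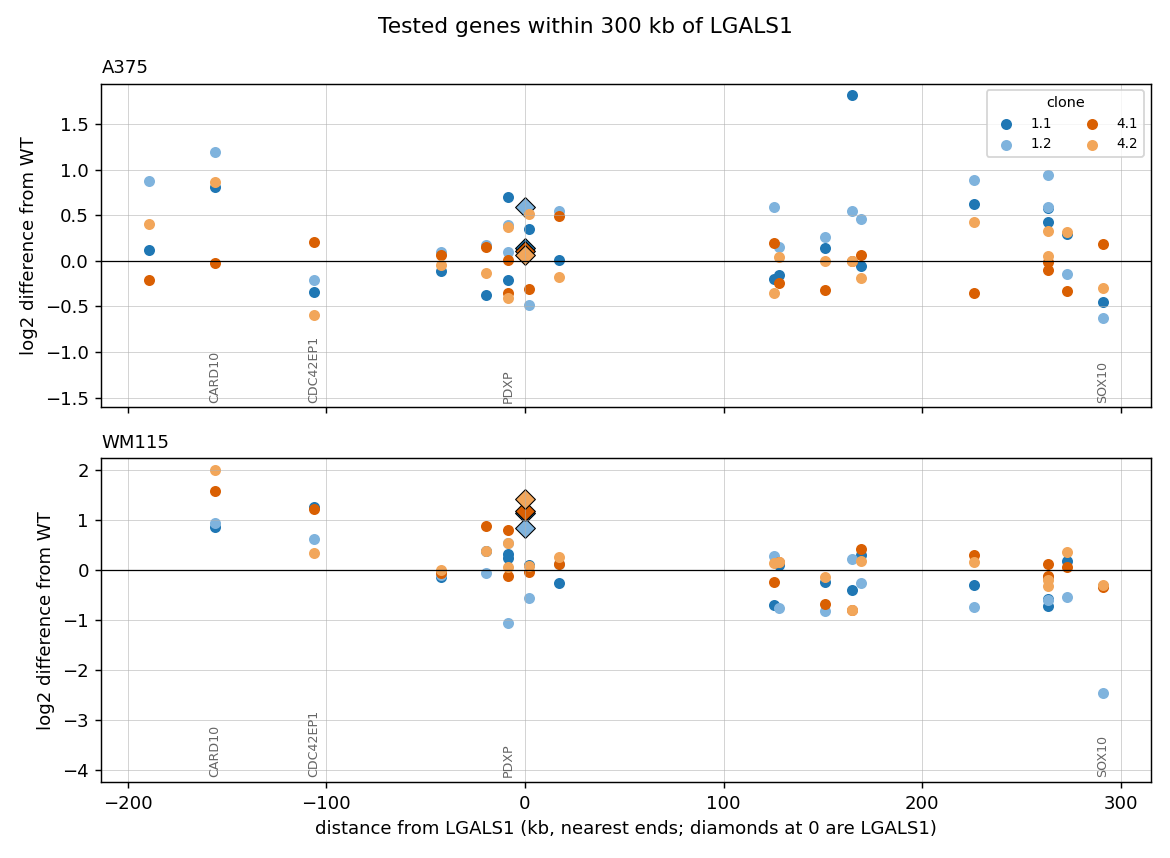
Log2 difference from WT of every tested gene within 300000 bp of LGALS1, by signed distance in kb along chromosome 22, with LGALS1 as diamonds at 0 and the 4 clones of each line by colour. In WM115 LGALS1 (0.86 to 1.43), CDC42EP1 (0.35 to 1.26) and CARD10 (0.86 to 2.02) lie above 0 in all 4 clones, and SOX10 in clone 1.2 lies lowest (-2.44).

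Around LGALS7 and LGALS7B, 30 genes lie within 300000 bp, of which 13 were tested in A375 and 15 in WM115. In A375 0 were called. In WM115 FBXO27, a sugar-binding F-box gene, fell in clones 1.1 and 4.1 by 1.56 and 1.54 on the log2 scale, FBXO17 fell in clone 4.1 by 1.03 and RYR1 rose there by 1.24. The calls held in 18 of 20 alternatives for FBXO27 in clone 1.1, and in 9, 11 and 17 of 18 for FBXO27, FBXO17 and RYR1 in clone 4.1. ACTN4, 39388 bp away, differed from WT by between -0.22 and 0.17 in clones 1.1, 1.2, 4.1 and 4.2, while LGALS7+LGALS7B differed by 0.90 to 5.63. None of the genes nearer than FBXO17 was called.

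Other genes of galectin biology were followed in lists chosen with earlier results of these data known. Of 11 other galectin genes, 1 (LGALSL) was tested in each line and it was not called. Over the 6 lists without the neighbours, limma called 6 of 59 tested genes in WM115 clone 1.1 (10.2%, beside 4.88% of all genes) and 13 in clone 1.2 (22%, beside 7.61%). Clone 4.1 had 8 (13.6%, beside 7.56%), clone 4.2 had 10 (16.9%, beside 6.6%) and clone 1.3 had 0 (beside 0.618%). In clone 1.2 the count was 5 without replicate 3. In A375 it called 1, 4, 0 and 1 of 58 in clones 1.1, 1.2, 4.1 and 4.2 (1.72%, 6.9%, 0% and 1.72%, beside 0.731%, 4.02%, 0.653% and 0.473% of all genes), and 2 in clone 4.1 with the pairing as a block (CSPG4 at 1.096 and FN1 at -1.67). These shares of all genes also stand beside the calls of each single list below. Where a count of alternatives that kept a call is given below, those that lost it can include leaving out a single library.

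Enzymes that build or cap the glycans galectins bind gave these calls among 16 tested in WM115: 0 in clone 1.1, 2 higher and 3 lower in clone 1.2, 2 lower in clone 4.1, and 2 higher and 1 lower in clone 4.2. All genes were called at 4.88%, 7.61%, 7.56% and 6.6% in these clones. The list's median difference was -0.16, 0.02, -0.17 and 0.09 in that order, beside -0.12, -0.02, -0.10 and -0.10 over all genes tested. GCNT2, which makes branches on poly-N-acetyllactosamine chains, averaged 19.6 ± 5.24 TPM in WT (SD, n = 4), 5.14 ± 1.19 in clone 4.1 and 4.49 ± 1.19 in clone 4.2 (SD, n = 3 each), log2 differences of -1.72 and -1.89 (limma adjusted p 0.00134 and 0.000963), calls held in 16 and 17 of 18 alternatives. In clone 1.2 it fell by 1.24, a call held in 15 of 18 and lost without replicate 3 (-0.97). The sialyltransferase ST3GAL6 was 32.3 TPM in WT and 6.001 TPM in clone 4.1 (-2.13, limma adjusted p 0.00142), a call held in 17 of 18 and lost among libraries of high mitochondrial share. FUT8, which adds the core fucose, rose in clones 1.2 and 4.2 by 1.15 and 1.25, calls held in 16 and 18 of 18 alternatives. C1GALT1, which builds the core 1 O-glycan, rose in clone 4.2 by 1.004, a call held in 11 of 18.

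In A375 clone 1.2, ST3GAL4 rose from 146 ± 23.2 to 324 ± 54.2 TPM (log2 difference 1.14, limma adjusted p 0.000217) and ST6GAL1, whose sialic acid blocks galectin-1 binding, fell from 43.7 ± 4.72 to 18.9 ± 1.57 TPM (-1.17, limma adjusted p 0.0133; SD, n = 4). Both are sialyltransferases, and the calls held in 16 of 18 and 17 of 18 alternatives, both being lost among the libraries of low mitochondrial share. The list had 0 calls in clones 1.1, 4.1 and 4.2 of that line.

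Of the glycoproteins that galectins bind, 15 were tested in each line. In WM115, 1 was called lower in clone 1.1, and 3 higher and 1 lower in clone 1.2. Clone 4.1 had 2 higher, and clone 4.2 had 2 higher and 1 lower. All genes were called at 4.88%, 7.61%, 7.56% and 6.6% in these clones. A375 clones 1.1 and 1.2 had 1 and 2 higher, beside 0.731% and 4.02% of all genes. In WM115, FN1, the gene of fibronectin, rose in clones 1.2, 4.1 and 4.2 from a WT mean of 1151 TPM to 2792, 4651 and 3831 TPM (log2 differences of 1.322, 2.01 and 1.76). The calls held in 10, 16 and 17 of 18 alternatives, and that in clone 1.2 was lost without replicate 3 (1.28). NRP1, a galectin-1 receptor, rose from 13.8 TPM to 97.3 TPM in clone 1.2 and 38.6 TPM in clone 4.2, calls held in 18 and 8 of 18 alternatives. EGFR rose in clones 1.2 and 4.1 by 1.74 and 1.12, calls held in 16 and 13 of 17, and fell in clone 1.1 by 1.81, from 2.67 to 0.0422 TPM, a call held in 19 of 19. SLC3A2, the heavy chain that galectin-3 binds as CD98, fell in clones 1.2 and 4.2 by 1.47 and 1.17, calls held in 13 and 9 of 18, and that in clone 1.2 was lost without replicate 3 (-0.80). In A375, EGFR rose in clones 1.1 and 1.2 by 1.13 and 1.38 and NRP1 rose in clone 1.2 by 1.604, calls held in 11 of 17, 18 of 18 and 17 of 18, and the list had 0 calls in clones 4.1 and 4.2.

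Among 10 genes of the response to damaged lysosomes, in which LGALS3 and LGALS8 act, ATG16L1 rose in WM115 clones 4.1 and 4.2 from 27.8 ± 7.24 TPM to 92.6 ± 7.56 and 87.6 ± 17.6 TPM (log2 differences of 1.73 and 1.64, limma adjusted p 1.58e-05 and 5.20e-05), calls held in 18 of 18 alternatives each. OPTN fell in clone 1.1 by 1.09, held in 14 of 20. None was called in A375. Of 8 interferon-stimulated genes, a class to which LGALS9 and LGALS3BP belong in other cells, MX1 fell in WM115 clones 1.1, 4.1 and 4.2 by 1.59, 1.11 and 1.103, calls held in 20 of 20, 10 of 18 and 10 of 18 alternatives. IRF1 rose in clones 1.2 and 4.1 by 1.61 and 1.11, held in 17 and 16 of 18. IFI6 fell in clone 1.1 by 1.12, held in 19 of 20, and IFIT1 rose in clone 1.2 by 1.14, held in 12 of 17 and lost without replicate 3 (0.65). OAS1 rose in A375 clone 4.2 by 1.12, a call held in 14 of 17.

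Galectin-7 is also known as a gene that p53 can induce, so 9 p53 targets were listed. GDF15 fell in WM115 clones 1.1, 1.2, 4.1 and 4.2 by 1.48, 1.82, 2.18 and 3.53 on the log2 scale, from 1690 ± 771 TPM in WT (SD, n = 4) to 133 ± 31.6 TPM in clone 4.2 (SD, n = 3). The calls held in 10 of 20, 9 of 18, 14 of 18 and 18 of 18 alternatives, and that in clone 1.2 was lost without replicate 3 (-1.08). PHLDA3 fell in clone 4.2 by 1.04, MDM2 in clone 1.2 by 1.03 and TP53I3 in clone 1.1 by 1.02, calls held in 9 of 18, 12 of 18 and 12 of 20. Without clone 1.2 replicate 3 the MDM2 call was lost (-0.72). None of the 9 was called higher in any clone of either line, and the list had 0 calls in A375. CDKN1A in A375 clone 1.2 stood 0.70 above WT (limma adjusted p 0.0334), under the minimum difference.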

How the data were processed

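The authors deposited gene and transcript tables in TPM, with no counts, so read depth is unknown and no count test was possible. RNA-seq was processed with DRAGEN against GRCh38, per the submitters' processing notes; their settings and annotation release are not given in the sources used here. Libraries were polyadenylated RNA, per the labels' protocols. Among the gene lines, 200 repeated identical lines were used once, and 6 columns that match no sample were not used.

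Genes with at least 1 TPM in at least 3 libraries of the fit were put on the log2(TPM + 1) scale. Differences were fitted by limma (version 3.58.1, run under R 4.3.3; group means per line, trended variance, Benjamini-Hochberg adjustment). A call needs an adjusted p under 0.05 and a log2 difference of at least 1. The procedure was tested on simulated data. The members and lists were chosen with earlier results of these data known. Of each list at most 4 genes per line were named, those called in the most clones, ties by the median size of the difference. Replicate numbers of A375 WT and clone 4.1 paired their libraries (r 0.33 to 0.78 over 4 pairs). This pairing comes from the data and not from the labels. No other clone's numbers paired with WT, and those of A375 clones 1.1 and 4.2 paired with each other (r 0.43 to 0.74 over 3 pairs).

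Alternatives were a pseudocount of 0.1, other filters and scalings, no minimum difference, no variance trend, only the groups compared, the replicate block, each copy of LGALS7 alone, and leaving out each library. Added after seeing the data were leaving out the libraries that stand apart and the mitochondrial sets. Positions are from GENCODE 29 and promoters from RefSeq.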

Additional observations from a re-analysis of the deposited data

Results flagged for a closer look

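LGALS3 in clone 4.1 lay on opposite sides of WT in the lines. In A375 clone 4.1 it lay above WT by 0.43 on the log2(TPM + 1) scale, with each of 4 libraries above each WT library, and did not pass the test (limma adjusted p 0.396). In WM115 clone 4.1 the difference was -2.05, with each of 3 libraries below each WT library. Both clones are labelled as lacking R4, the difference between the lines was not tested, and the WM115 contrast is the one that chose the members. Among 25 combinations of a feature and a group of 4 or 5 libraries, no library stood apart from its group by Dixon's criterion, which chance alone passes in about 1 in 20 groups.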

How the results depend on the processing

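Member calls in A375 clone 1.2 against WT numbered 1, and 2 with no minimum difference. They numbered 0 with a mean of at least 5 TPM, no filter, only the groups compared, the replicate block or the libraries of low mitochondrial share, and 0 to 1 leaving out 1 library. Between A375 clones 4.1 and 4.2 the 1 call became 0 with a pseudocount of 0.1 or the replicate block, and was 0 to 1 leaving out 1 library. In WM115 and between the WT lines, calls are given for LGALS3, LGALS8 and LGALS3BP. Between WM115 clones 1.1 and 1.2, LGALS3 was called with median-of-ratios scaling (1.12). It was also called there without clone 1.1 replicate 3 or clone 1.2 replicate 2. None of these features was called between WM115 clones 4.1 and 4.2 in any alternative. Between the WT lines LGALS3 was called in 14 of 14 alternatives, LGALS3BP in 3 and LGALS8 in 0. For list genes in A375, clone 1.1 had 2 calls with no minimum difference, median-of-ratios scaling or quantile normalization, 0 with only the groups compared, the replicate block or low mitochondrial share, and 0 to 3 leaving out 1 library. Clone 1.2 had 8 with no minimum difference and 1 at low mitochondrial share, clone 4.1 had 2 with the replicate block, and clone 4.2 had 0 with only the groups compared, the replicate block or low mitochondrial share. In WM115, list calls with no minimum difference were 12, 27, 16 and 22 in clones 1.1, 1.2, 4.1 and 4.2; with the replicate block they were 1, 3 and 3 in clones 1.2, 4.1 and 4.2, and with high mitochondrial share 8, 1 and 5. Clone 1.1 had 2 with median-of-ratios scaling and clone 1.2 had 7 with only the groups compared. Leaving out 1 library gave 3 to 7, 5 to 16 and 5 to 13 in clones 1.1, 1.2 and 4.2, and 0 to 1 in clone 1.3. No calls of LGALS1 or LGALS7+LGALS7B are given here in WM115 or between the WT lines, where they are described without a test. Signs turned only for differences of at most 0.18 in size in the main fit, though some alternatives moved them far. Against WM115 WT, clone 1.3 ranged from -0.17 to 0.79 for LGALS1, -0.66 to 0.34 for LGALS3 and -0.18 to 0.082 for LGALS3BP. LGALS3 in clone 1.1 ranged from -0.20 to 0.41 and LGALS8 in clone 1.2 from -0.16 to 0.14. Against A375 WT these were LGALS3BP in clone 1.2 (-0.048, median-of-ratios scaling), LGALS8 in clone 4.2 (-0.010 with that scaling, -0.058 with quantile normalization, -0.024 with the replicate block) and LGALS3 in clone 4.2 (-0.032 with quantile normalization, -0.070 with the replicate block). LGALS3BP between WM115 clones 1.1 and 1.2 was 0.087 with median-of-ratios scaling and 0.11 with the replicate block. With clone 1.3 as R1 the region difference of LGALS3BP was 0.041, and with it as R4 that of LGALS1 was 0.17. Leaving out 1 library, A375 clone 1.1 ranged from -0.13 to 0.28 for LGALS1 and -0.33 to 0.10 for LGALS3BP, and clone 1.2 from -0.071 to 0.15 for LGALS3BP. Clone 4.2 ranged from -0.10 to 0.16 for LGALS1, -0.074 to 0.18 for LGALS3 and -0.024 to 0.11 for LGALS8. Between clones, LGALS3BP ranged from -0.35 to 0.083 (A375 1.1 and 1.2) and -0.14 to 0.047 (WM115 1.1 and 1.2), and LGALS1 from -0.044 to 0.22 (A375 4.1 and 4.2). Leaving out 1 clone, the region difference ranged from -0.16 to 0.11 for LGALS1, -0.21 to 0.083 for LGALS8 and -0.064 to 0.064 for LGALS3BP. The cause of these changes was not tested. Groups of 3 to 5 libraries from 1 clone and unknown depth limit the precision, most of all for LGALS7+LGALS7B near 1 TPM and for LGALS9.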
